A study of Mus musculus with 6 samples.

Results

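Collagen chains were described here as every gene of the count table whose symbol has the form Col, a number, a and a number, such as Col1a1. The rule found 41 chains among 17128 genes. They fall into 11 fibrillar, 5 basement membrane, 9 FACIT (fibril-associated collagens with interrupted triple helices), 5 beaded filament, 3 network-forming, 2 multiplexin and 4 transmembrane chains, and 2 others. Of the 41 chains, 35 passed the filter on low counts and were tested. Emid2, a synonym of Col26a1 in the RefSeq gene table, did not match the rule and was not counted as a member. It had 71, 0 and 194 reads in CXCL12-deficient libraries and 14, 90 and 37 reads in controls. GENCODE M21 lists 44 mouse genes with symbols of this form, and those without an entry in the count table were not analysed here.

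The libraries were made from cells sorted out of mouse femurs at postnatal day 21, which were digested with collagenase once the distal growth plates and the proximal ends had been taken off. For the CXCL12-deficient group (3 libraries), the sort took cells positive for both GFP and tdTomato from Cxcl12(GFP/fl); Col2a1-cre; R26R(tdTomato/+) mice, and for the control group (3 libraries) it took cells positive for GFP from Cxcl12(GFP/fl); R26R(tdTomato/+) mice. Both groups thus carry a GFP allele and a floxed allele of Cxcl12, and the cre transgene is driven by Col2a1, itself a collagen gene of cartilage, so that the deficient cells descend from Col2a1-expressing cells. Gate, transgene and deletion changed together and cannot be told apart. Each library used about 20000 cells, and the labels do not say that each came from a separate animal, so that p-values reflect only how these libraries scatter, which may be technical.

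Collagens are secreted proteins built of 3 chains wound into a triple helix. Fibrillar collagens form the cables of bone, cartilage and connective tissue, and basement membrane collagen IV forms sheets around vessels and other cells. FACIT collagens sit on the surface of fibrils, collagen VI forms beaded microfibrils close to cells, and transmembrane collagens stay anchored in the cell surface. Type I collagen is the main protein of bone, types II, IX and XI mark cartilage, and type X marks hypertrophic cartilage.

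The regions around the start sites of 4 chains are printed because these chains show the contrasting patterns described further on. Col4a1 and Col4a2 were among the most even chains and start head to head, Col1a2 was highest in the 2 libraries with the most Smpd3 and Ifitm5, genes of bone cells, and Col10a1 was abundant in 1 library only. Each sequence runs 5′ to 3′ on the strand of its gene, from 250 bases before to 50 after the start in RefSeq (GRCm38.p6), and capitals mark matches on either strand to the CCAAT box, the GC box with the letters GGGCGG, the TATA box with the letters TATAAA, the SOX core with the letters ACAAAG, or the RUNX core with the letters TGTGGT.
Col4a2 (chr8:11312555-11312854, plus strand): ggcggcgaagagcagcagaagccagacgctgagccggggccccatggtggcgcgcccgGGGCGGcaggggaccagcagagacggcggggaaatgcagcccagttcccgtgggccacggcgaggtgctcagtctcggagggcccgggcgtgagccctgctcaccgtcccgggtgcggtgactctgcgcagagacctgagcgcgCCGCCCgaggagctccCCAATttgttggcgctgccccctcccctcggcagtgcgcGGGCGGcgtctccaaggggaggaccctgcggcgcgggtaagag
Col4a1 (chr8:11312777-11313076, minus strand): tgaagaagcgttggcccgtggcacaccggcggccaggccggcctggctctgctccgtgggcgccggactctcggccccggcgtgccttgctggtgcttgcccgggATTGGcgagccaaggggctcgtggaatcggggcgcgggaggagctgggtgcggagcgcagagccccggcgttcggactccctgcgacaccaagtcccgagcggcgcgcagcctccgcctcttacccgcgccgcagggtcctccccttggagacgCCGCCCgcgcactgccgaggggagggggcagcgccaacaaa
Col1a2 (chr6:4505368-4505667, plus strand): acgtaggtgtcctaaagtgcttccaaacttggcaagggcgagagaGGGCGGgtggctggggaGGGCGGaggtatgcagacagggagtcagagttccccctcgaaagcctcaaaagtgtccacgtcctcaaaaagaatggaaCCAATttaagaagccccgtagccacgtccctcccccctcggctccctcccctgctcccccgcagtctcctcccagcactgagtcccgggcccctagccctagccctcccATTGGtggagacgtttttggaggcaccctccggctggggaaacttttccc
Col10a1 (chr10:34389731-34390030, plus strand): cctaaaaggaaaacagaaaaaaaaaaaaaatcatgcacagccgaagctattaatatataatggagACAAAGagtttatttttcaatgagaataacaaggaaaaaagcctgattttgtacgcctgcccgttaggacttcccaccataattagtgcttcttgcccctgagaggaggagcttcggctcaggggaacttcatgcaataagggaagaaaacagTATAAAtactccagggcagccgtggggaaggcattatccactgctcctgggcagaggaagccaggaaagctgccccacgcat

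The windows of Col4a2 and Col4a1 share 78 bases, and in GENCODE M21 the start sites of the 2 genes on chromosome 8 lie 21 bases apart. Col10a1 held TATAAA and ACAAAG and no GC box, and Col1a2 held 2 GC boxes and 2 CCAAT boxes. Windows were found for 33 of the 41 chains, and Col1a1, Col2a1, Col4a3, Col5a2, Col9a3, Col12a1, Col14a1 and Col22a1 had none. GGGCGG was in at least 1 window of 20 of the 33 chains (60.6%), against 38.2% of all 27025 genes with a window. The other letters were found in shares nearer those of all genes or below them: CCAAT in 39.4% of chains and 41.1% of genes, TATAAA in 15.2% and 15.7%, ACAAAG in 15.2% and 21.0%, and TGTGGT in 9.09% and 18.9%. A match describes these letters and shows no binding.

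Total counts ran from 20133299 to 28009257 per library, and 1 read was worth 0.0357 to 0.0472 CPM (the read count scaled to the library total, with TMM factors). Cxcl12, summed over its exon entries, had 1423, 1280 and 1163 CPM in CXCL12-deficient libraries, against 3876, 3673 and 3694 CPM in controls (log2 fold change -1.54 ± 0.17, adjusted p = 0.00527). With log2 fold changes, which run CXCL12-deficient over control, ± gives the SE, and with levels it gives the SD. All of 13 markers of CXCL12-abundant reticular cells had reads in every library. So had all but 1 of 15 leukocyte markers, so the presence of reads cannot check the labelled stromal identity. Of the 13 reticular markers, 3 were called higher and 1, Cxcl12 itself, lower. Their summed level was 12251 to 15511 CPM in CXCL12-deficient libraries and 9996 to 11194 CPM in controls, Cxcl12 included. The summed level of 15 leukocyte markers was 1129 to 2495 CPM in CXCL12-deficient libraries and 6770 to 11244 CPM in controls. That of 15 endothelial markers was 141 to 171 CPM in CXCL12-deficient libraries and 238 to 302 CPM in controls. Of 9 tested markers of fibroblasts and tendon cells, which make much collagen elsewhere, 4 were called lower. The log2 fold change was positive for 3 of the 9, Tnmd, Mkx and Has1. The 12 in the table summed to 89.3 to 120 CPM in CXCL12-deficient libraries and 193 to 226 CPM in controls. Adipocyte markers, 2 of 7 called higher and with Adipoq shared with the reticular list, summed to 6645 to 11983 CPM in CXCL12-deficient libraries and 3927 to 6562 CPM in controls. Markers of pericytes summed to 351 to 418 CPM in CXCL12-deficient libraries and 346 to 523 CPM in controls, and those of Schwann cells to 178 to 192 CPM in CXCL12-deficient libraries and 114 to 243 CPM in controls, with 0 genes called in either list. The part of these cells in the levels of the chains was not tested. In these sorted populations fewer cells of a type and less RNA per cell cannot be told apart.

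No collagen chain passed the test between the groups. Of the 35 tested chains 0 passed an adjusted p of 0.05 in the quasi-likelihood test of edgeR, whereas 4.57% of all 13926 tested genes did. DESeq2 and limma-voom called 0 of 35 as well. At an unadjusted p below 0.05 there were 2 chains, Col16a1 and Col6a3, or 5.71%, against 18.9% of all genes. The libraries of the 2 groups did not overlap for 1 chain, Col4a5, or 2.86%, against 25.6% of all genes. Of the 35 chains 13 had a positive log2 fold change, and their median was -0.21, whereas 52.6% of all genes were positive and their median was 0.03. The median of the chains turned positive, to 0.34, without control replicate 1.

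By class, the log2 fold change was above 0 in 4 of 11 fibrillar chains (median -0.21) and in 3 of 4 tested basement membrane chains (median 0.23). It was above 0 in 2 of 7 tested FACIT chains (median -1.04), 2 of 4 tested beaded filament chains (median -0.05) and 2 of 3 network-forming chains (median 1.25). All 4 transmembrane chains were negative (median -0.31), with 0 called. The summed level of all chains was 6775, 14448 and 8639 CPM in CXCL12-deficient libraries and 20574, 8598 and 6546 CPM in controls. Control replicate 1 and CXCL12-deficient replicate 2 stood above the rest in this sum, which fibrillar chains led with 3455, 10712 and 4037 CPM in CXCL12-deficient libraries and 14390, 5094 and 3364 CPM in controls.

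**Figure D1:**
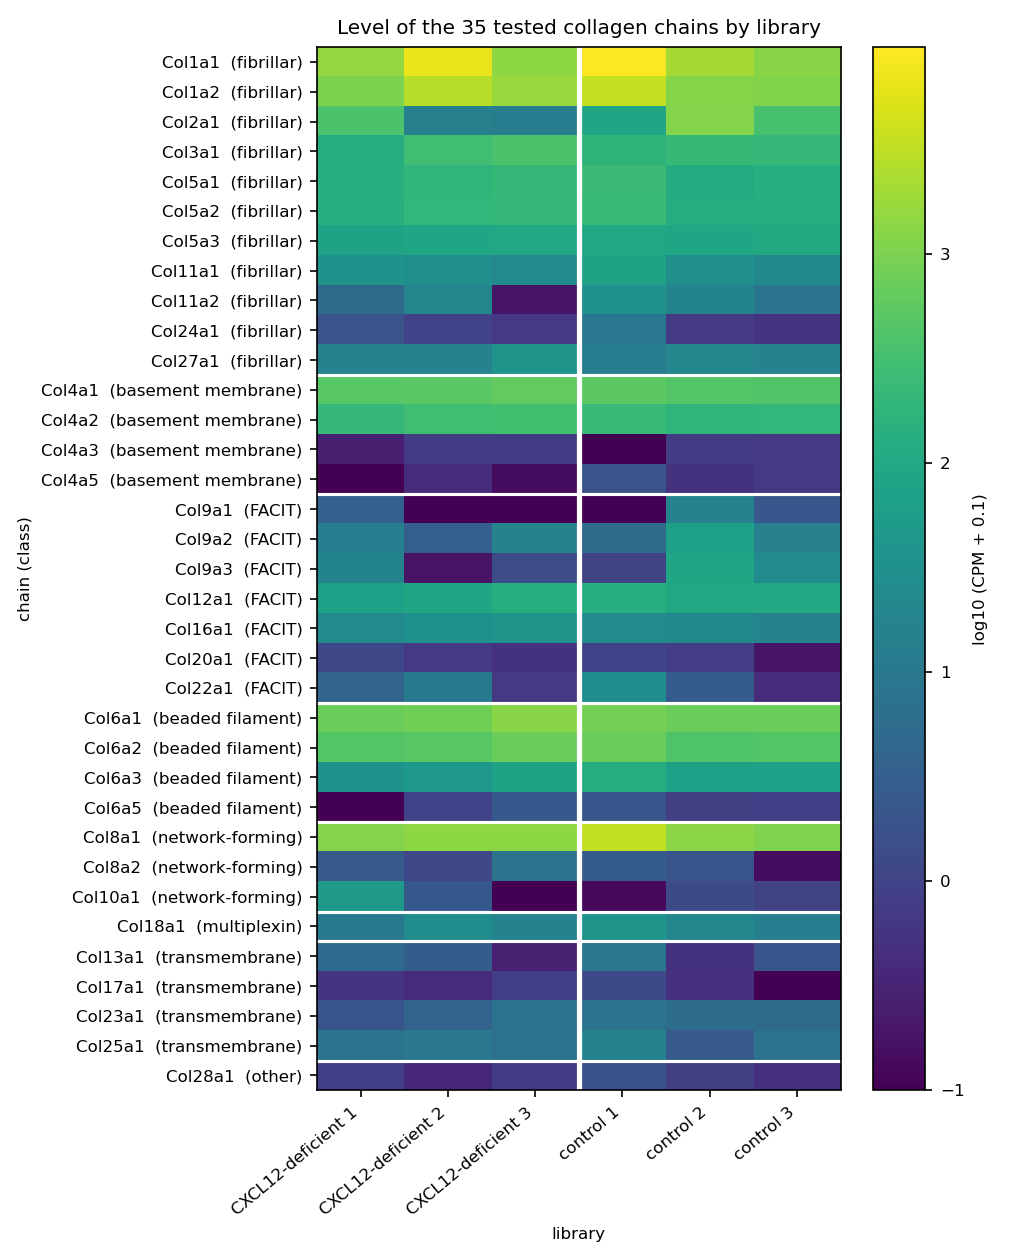
Level of each tested chain in each library, as log10 of CPM plus 0.1. Rows are the 35 chains by class, columns are the 3 CXCL12-deficient and then the 3 control libraries; Col1a1 is brightest in control replicate 1 and CXCL12-deficient replicate 2, and Col2a1 in control replicate 2.

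Many chains had a wide spread between libraries of the same group. The SD of log2 CPM within groups had a median of 0.84 over the 35 chains and of 0.31 over all tested genes, and Col4a1, Col4a2, Col5a3 and Col16a1 lay below that median of all genes. Where the mean was 5 CPM or more, the medians were 0.63 for 25 chains and 0.26 for 10842 genes. Control replicate 1 held the highest value of 18 of the 35 chains (51.4%), whereas it was highest for 14.5% of all genes. CXCL12-deficient replicate 3 was highest for 9 chains (25.7%), against 19.8% of all genes. The 95% interval of the fold change lay within 2-fold in both directions for 8 chains only (22.9%, against 55.1% of all genes). Those 8 were Col4a1, Col4a2, Col5a1, Col5a2, Col5a3, Col6a1, Col6a2 and Col12a1, and for the other 27 chains a change of 2-fold or more in at least 1 direction lies inside the interval.

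**Figure D2:**
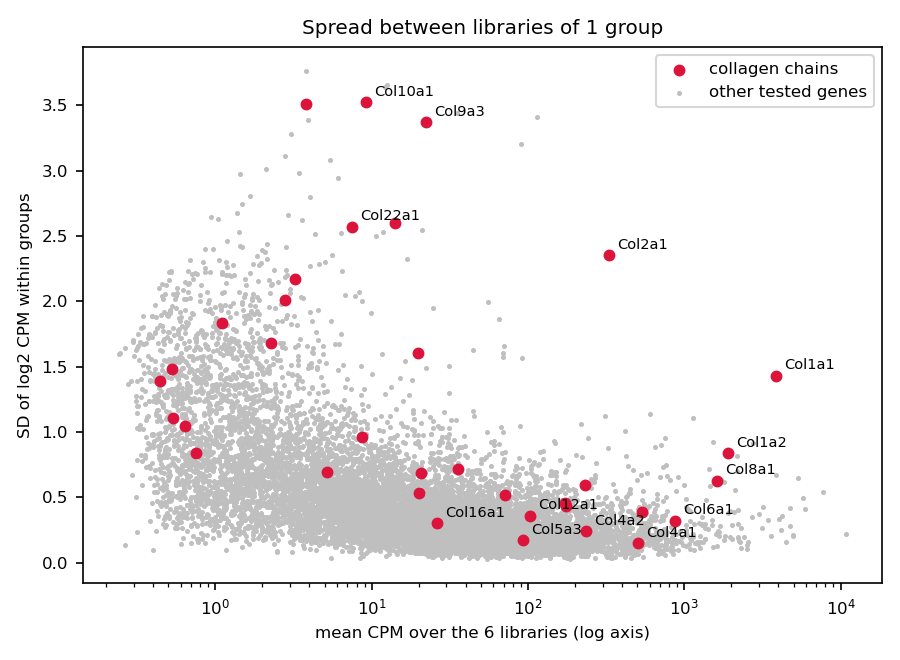
Mean CPM over the 6 libraries (log axis) against the SD of log2 CPM within groups, for collagen chains (red) and all other tested genes (grey). Col1a1, Col2a1, Col9a3 and Col10a1 lie high above most genes of like abundance, while Col4a1 at 0.15 and Col5a3 at 0.18 lie among them.

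Among the fibrillar chains, type I collagen was the most abundant and varied most by library in absolute level. Col1a1 (GRCm38 chr11:94936224-94953042, plus strand), the major chain of type I collagen, had 1519, 7055 and 1420 CPM in CXCL12-deficient libraries, against 9819, 2123 and 1249 CPM in controls. Control replicate 1 and CXCL12-deficient replicate 2 thus stood far above the other libraries, and the groups overlapped. The log2 fold change of -0.40 ± 0.90 had a 95% interval from -2.52 to 1.72 (adjusted p = 0.862), and it was 0.97 without control replicate 1 (adjusted p = 0.511). Col1a2, the partner chain, had 1028, 2816 and 1655 CPM in CXCL12-deficient libraries and 3580, 1206 and 1121 CPM in controls. Its high libraries were the same, its largest value was 3.48 times its lowest, and its interval ran from -1.21 to 1.0. Without control replicate 1 its log2 fold change was 0.64.

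Col3a1, the chains of type V and Col27a1 had a smaller spread within groups than Col1a1 and Col1a2. Col3a1, which forms thin fibrils in soft connective tissue, had 123, 288 and 372 CPM in CXCL12-deficient libraries and 179, 216 and 210 CPM in controls. Its control libraries lay close together and inside the range of the CXCL12-deficient ones (log2 fold change 0.37 ± 0.33, adjusted p = 0.613). Col5a1 and Col5a2, chains of the collagen V that starts and limits fibrils, averaged 175 ± 37.7 and 184 ± 38.2 CPM in CXCL12-deficient libraries and 172 ± 70.9 and 168 ± 64.2 CPM in controls (SD, n = 3 each). Col5a3, a further chain of type V, had 75.0, 84.6 and 99.2 CPM in CXCL12-deficient libraries and 98.7, 89.9 and 110 CPM in controls. Its groups overlapped, and its 95% interval allows a fold change of 0.67 to 1.12. Col27a1, a fibrillar chain of cartilage, had 17.0, 16.1 and 38.4 CPM in CXCL12-deficient libraries and 13.2, 19.9 and 16.6 CPM in controls, so that only CXCL12-deficient replicate 3 stood higher.

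Cartilage collagen was present in both groups and unevenly so. Col2a1 (chr15:97975602-98004695, minus strand), the chain of type II collagen and the gene whose promoter drives the cre, had 377, 15.2 and 12.3 CPM in CXCL12-deficient libraries, against 86.9, 1149 and 343 CPM in controls. Its highest level was 93.1 times its lowest, the groups overlapped, and the log2 fold change of -1.97 ± 1.53 had an interval from -5.66 to 1.73 (adjusted p = 0.569). It was -5.26 without CXCL12-deficient replicate 1 and -0.67 without control replicate 2. Col11a1 and Col11a2, chains of the type XI collagen inside cartilage fibrils, did not follow this order. Col11a1 had 34.3, 31.2 and 22.2 CPM in CXCL12-deficient libraries and 75.9, 30.0 and 20.9 CPM in controls. Col11a2 had 5.33, 19.4 and 0.0888 CPM in CXCL12-deficient libraries, the last value from 2 reads, and 34.1, 17.9 and 8.22 CPM in controls. Both were highest in control replicate 1, as was the bone-expressed Col24a1, with 1.83, 0.916 and 0.577 CPM in CXCL12-deficient libraries and 9.14, 0.61 and 0.472 CPM in controls.

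Among FACIT chains the 3 chains of type IX collagen, which coats type II fibrils, were highest in the library with most Col2a1. Col9a1 had 3.33, 0 and 0 CPM in CXCL12-deficient libraries and 0, 17.3 and 2.17 CPM in controls; 3 reads would be 0.107 to 0.133 CPM in the libraries at 0. Col9a2 had 13.9, 3.01 and 16.8 CPM in CXCL12-deficient libraries and 5.1, 65.2 and 14.8 CPM in controls. Col9a3 had 17.9, 0.0872 and 1.33 CPM in CXCL12-deficient libraries and 0.857, 87.2 and 25.3 CPM in controls. Control replicate 2 was the highest for all 3 chains, and for Col2a1, Col9a1 and Col9a3 the 3 highest libraries were control replicates 2 and 3 and CXCL12-deficient replicate 1. The adjusted p of the 3 chains lay between 0.499 and 0.591.

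The remaining FACIT chains split into even and uneven ones. Col12a1, a chain of tendon, ligament and bone surfaces, had 69.2, 87.4 and 128 CPM in CXCL12-deficient libraries and 134, 97.4 and 104 CPM in controls (log2 fold change -0.24 ± 0.24, adjusted p = 0.651). Col16a1 had 24.2, 31.8 and 38.9 CPM in CXCL12-deficient libraries and 24.5, 20.9 and 17.2 CPM in controls. Its groups overlapped at 1 library of each, with a log2 fold change of 0.60 ± 0.24 and an adjusted p of 0.211, the lowest of the 35 chains. Col22a1, known from tissue junctions such as that of muscle and tendon, had 3.75, 10.4 and 0.577 CPM in CXCL12-deficient libraries and 27.2, 2.72 and 0.331 CPM in controls. It followed the order of Col1a1, with control replicate 1 and CXCL12-deficient replicate 2 on top. Col20a1 stayed at or below 1.12 CPM in all 6 libraries.

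**Figure D3:**
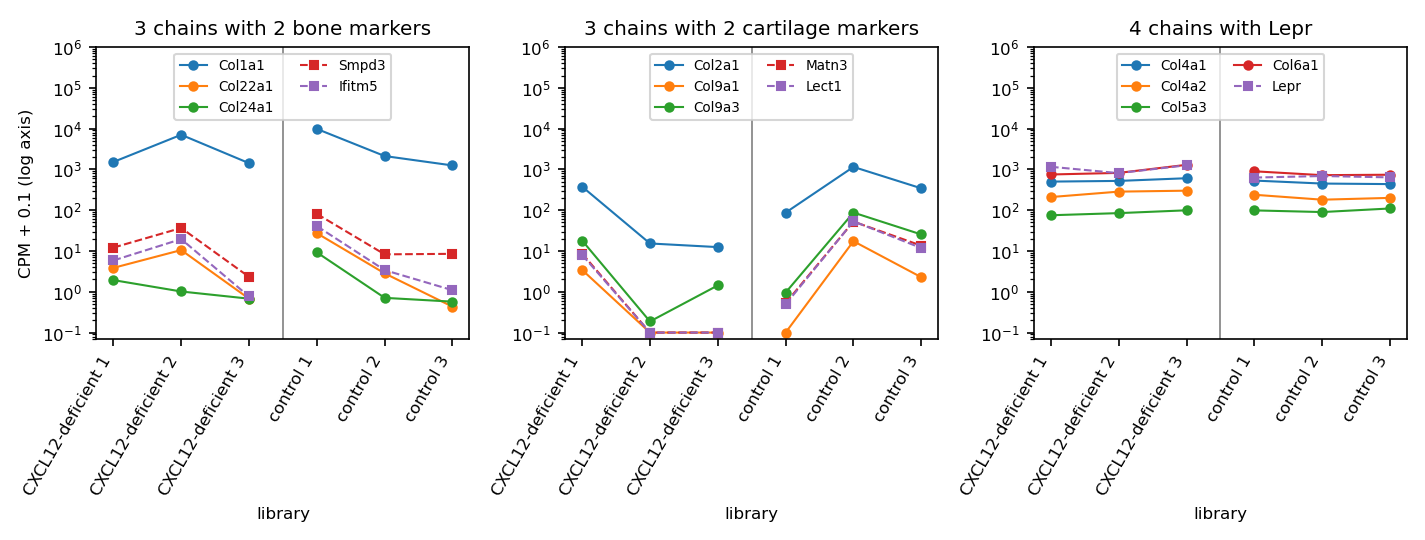
CPM plus 0.1 (log axis) of chains (circles, full lines) and of marker genes that are no collagens (squares, dashed lines) in each library; lines only join values of 1 gene within a group and have no order in them. Col1a1 and Col22a1 are high with Smpd3 and Ifitm5 in control replicate 1 and CXCL12-deficient replicate 2. Col24a1, in the same panel, stands out in control replicate 1 only. Col2a1, Col9a1 and Col9a3 are high with Matn3 and Lect1 in control replicates 2 and 3 and CXCL12-deficient replicate 1. Col4a1, Col4a2, Col5a3 and Col6a1 are nearly level, shown with Lepr, a marker of the reticular cells.

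Markers of bone and cartilage cells moved between libraries with these chains. Smpd3, a sphingomyelinase of bone and cartilage mineralization, had 12.0, 36.5 and 2.22 CPM in CXCL12-deficient libraries and 80.9, 8.17 and 8.41 CPM in controls. Ifitm5, a gene of osteoblasts, had 5.75, 19.5 and 0.666 CPM in CXCL12-deficient libraries and 40.6, 3.29 and 0.992 CPM in controls. Both were highest in the 2 libraries with most Col1a1. The full list of bone markers had 14 genes in the table, of which Mepe was at 0 in 4 libraries and Pdpn at 0 in at least 1, and a summed level of 12964, 12938 and 11565 CPM in CXCL12-deficient libraries, against 19117, 9487 and 7009 CPM in controls. Control replicate 1 was highest by this sum too, but CXCL12-deficient replicate 2 did not stand above replicate 1, and 0 of the 12 tested genes was called. The order of control replicate 1 and CXCL12-deficient replicate 2 as the 2 highest libraries was found in 7 chains, Col1a1, Col1a2, Col8a1, Col11a2, Col18a1, Col22a1 and Col25a1, or 20%, against 7.31% of all genes. This order was first seen in Col1a1 and then counted, so the shares are a description only. The part of bone cells in these values was not tested.

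For cartilage, Matn3, which encodes a matrix protein of cartilage, had 8.54, 0 and 0 CPM in CXCL12-deficient libraries and 0.428, 52.4 and 13.4 CPM in controls. Lect1, encoding chondromodulin, had 7.91, 0 and 0 CPM in CXCL12-deficient libraries and 0.393, 53.1 and 11.7 CPM in controls. These are the 3 libraries that were highest in Col2a1, Col9a1 and Col9a3. The 13 cartilage markers in the table summed to 175, 143 and 164 CPM in CXCL12-deficient libraries and 112, 411 and 197 CPM in controls, and 8 of the 13 had no read in at least 1 library. The largest part of this sum in every library was Sox9, a regulator of cartilage that marrow stromal cells also express. It had 43.9, 104 and 122 CPM in CXCL12-deficient libraries and 73.8, 94.3 and 84.5 CPM in controls, which is not the order of Col2a1. None of the 12 tested cartilage markers was called, and the part of cartilage cells in the chains was not tested.

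Among the network-forming chains, Col10a1 was high in a single library. Col10a1 (chr10:34389981-34397085, plus strand), the chain of hypertrophic cartilage, had 50.8, 2.31 and 0 CPM in CXCL12-deficient libraries and 0.0357, 1.22 and 0.803 CPM in controls. CXCL12-deficient replicate 1 carried 1219 reads, and the other 5 libraries between 0 and 53, so that the log2 fold change of 4.70 ± 2.14 (adjusted p = 0.304) rested on 1 library, without which it was 0.76. Col8a1 (chr16:57624258-57754737, minus strand), a chain of the type VIII collagen known from vessel walls and Descemet's membrane, was among the most abundant chains in every library. It had 1156, 1392 and 1390 CPM in CXCL12-deficient libraries and 3394, 1335 and 1087 CPM in controls. Outside control replicate 1 its libraries lay between 1087 and 1392 CPM, and the log2 fold change of -0.56 ± 0.38 became 0.10 without that library. Col8a2, its partner chain, had 2.46, 1.13 and 8.26 CPM in CXCL12-deficient libraries and 2.78, 2.11 and 0.0472 CPM in controls.

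The basement membrane chains Col4a1 and Col4a2 were among the most even of the abundant collagens. Col4a1 (chr8:11198423-11312826, minus strand) had 502, 522 and 607 CPM in CXCL12-deficient libraries and 532, 449 and 436 CPM in controls. Its log2 fold change was 0.20 ± 0.16 with an interval from -0.15 to 0.56 (adjusted p = 0.556). Col4a2 (chr8:11312805-11449287, plus strand) had 210, 285 and 301 CPM in CXCL12-deficient libraries and 239, 181 and 200 CPM in controls. The annotated spans of these genes overlap by 22 bases, within which unstranded reads cannot be told apart. Both chains were highest in CXCL12-deficient replicate 3, and the groups overlapped (Col4a2 log2 fold change 0.36 ± 0.18, interval -0.05 to 0.78, adjusted p = 0.334). Endothelial markers, which mark cells known to make collagen IV, had negative log2 fold changes apart from Eng, as given above, and 7 of 15 were called lower. Their part in the level of Col4a1 and Col4a2 was not tested.

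Col4a5 (chrX:141475385-141689234, plus strand), an X-linked chain of the kidney and other specialized basement membranes, was the single chain whose groups did not overlap. It had 0, 0.349 and 0.0444 CPM in CXCL12-deficient libraries, from 0, 8 and 1 reads, against 1.78, 0.447 and 0.567 CPM in controls, from 50, 11 and 12 reads. The log2 fold change of -2.80 ± 1.25 had an adjusted p of 0.27. It was -5.13 without CXCL12-deficient replicate 2 and -1.93 without control replicate 1, and the lowest control lay close to the highest CXCL12-deficient library. Col4a3 stayed at or below 0.654 CPM in all libraries.

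Collagen VI was evenly abundant apart from its long chain. Col6a1 had 750, 820 and 1294 CPM in CXCL12-deficient libraries and 898, 722 and 739 CPM in controls (log2 fold change 0.28 ± 0.23, adjusted p = 0.575). Col6a2 averaged 547 ± 133 CPM in CXCL12-deficient libraries and 531 ± 170 CPM in controls (SD, n = 3 each), with a log2 fold change of 0.04 ± 0.25. Col6a3 (chr1:90765923-90843971, minus strand), the long chain that joins Col6a1 and Col6a2 in the collagen VI monomer, had 34.3, 46.4 and 79.1 CPM in CXCL12-deficient libraries, against 120, 73.4 and 72.3 CPM in controls. CXCL12-deficient replicate 3 lay above 2 of the controls. The log2 fold change of -0.74 ± 0.32 had an interval from -1.46 to -0.02 and an adjusted p of 0.253. Col6a5 stayed at or below 2.22 CPM.

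Multiplexin and transmembrane chains were low. Col18a1, the source of endostatin, had 10.5, 26.3 and 17.0 CPM in CXCL12-deficient libraries and 37.4, 19.4 and 14.2 CPM in controls (log2 fold change -0.41 ± 0.42, adjusted p = 0.67). Col25a1 had 8.12, 10.1 and 7.1 CPM in CXCL12-deficient libraries and 16.7, 2.56 and 7.32 CPM in controls. Col23a1 had 1.92, 3.75 and 7.37 CPM in CXCL12-deficient libraries and 7.25, 5.61 and 5.34 CPM in controls. Both overlapped between the groups, and control replicate 1 was the highest for Col18a1 and Col25a1. Col13a1 and Col17a1 (of hemidesmosomes) reached at most 9.25 and 1.25 CPM, both in control replicate 1. Col28a1 stayed at or below 1.71 CPM.

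**Figure D4:**
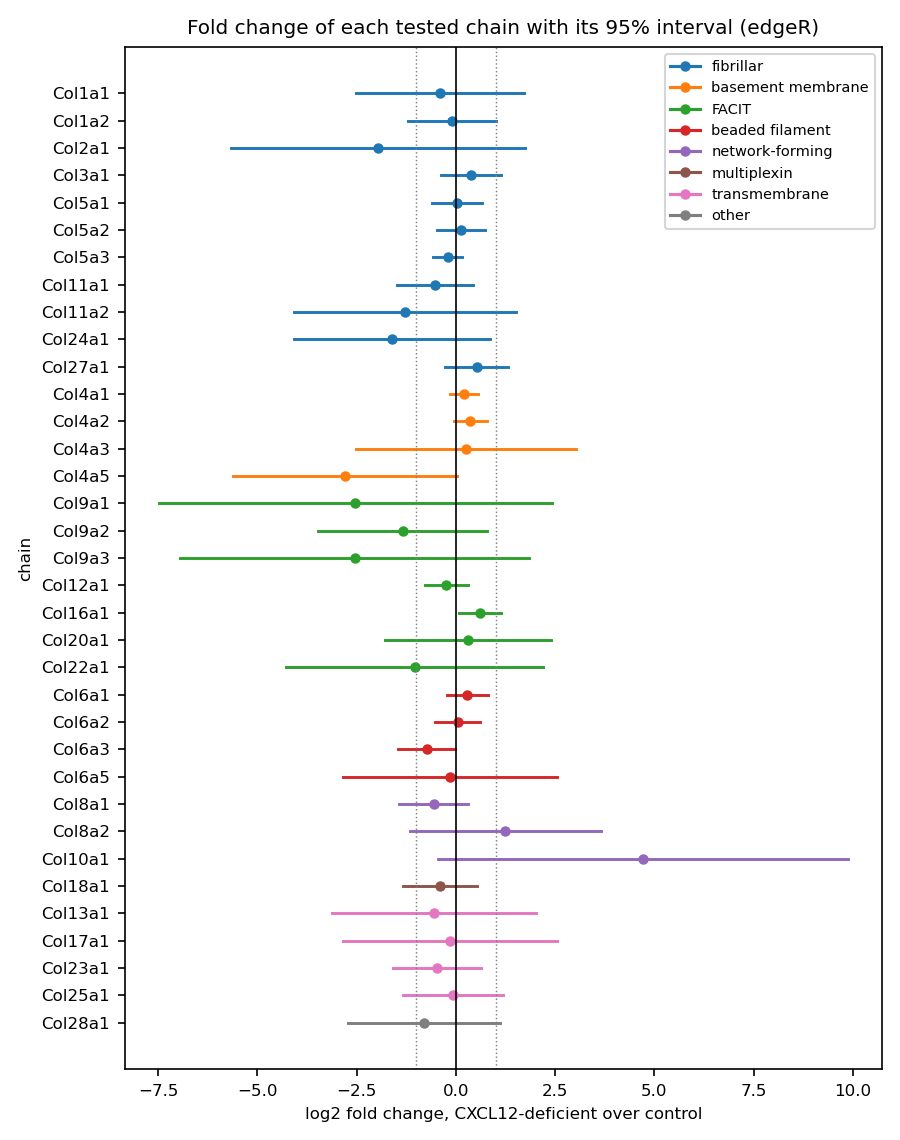
Log2 fold change of CXCL12-deficient over control libraries for each of the 35 tested chains (points) with its 95% interval from edgeR (lines), coloured by class; dotted lines mark a 2-fold change. Only the intervals of Col16a1 and Col6a3 lie to 1 side of 0, at an adjusted p of 0.211 and 0.253, and that of Col10a1 is the widest.

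The 6 chains below the filter had few reads. Col4a4 had 10, 1 and 7 reads in CXCL12-deficient libraries and 1, 10 and 0 reads in controls, and Col14a1 had 4, 0 and 33 reads in CXCL12-deficient libraries and 5, 0 and 11 in controls. Col19a1 had 0 reads in all 3 CXCL12-deficient libraries, against 32, 7 and 0 reads in controls, and Col15a1 had 0 reads there, against 0, 2 and 5 in controls. Col7a1, the anchoring fibril chain of skin, had 3, 0 and 12 reads in CXCL12-deficient libraries and 0, 3 and 2 reads in controls. Col6a4 had 4 reads, all in CXCL12-deficient replicate 3. At this depth such counts are too few to show a difference between the groups or its absence.

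Levels of different chains were compared per kilobase of the transcript with the longest coding sequence in GENCODE M21. On this scale Col1a1 had the highest mean over the 6 libraries, at 562 ± 544 CPM per kb in CXCL12-deficient libraries and 741 ± 795 CPM per kb in controls (SD, n = 3 each). Col1a2, Col8a1, Col6a1 and Col6a2 came next by that mean. The order differed between libraries: in CXCL12-deficient replicate 3 Col6a1 (316 CPM per kb) was above Col1a1 (239 CPM per kb), and in control replicate 3 Col8a1 (213 CPM per kb) was about level with Col1a1 (211 CPM per kb). Neighbours in this order overlapped in their spread in most cases. Col1a2 had 343 ± 170 CPM per kb in CXCL12-deficient libraries and 368 ± 261 in controls, and Col8a1 had 257 ± 26.6 in CXCL12-deficient libraries and 380 ± 248 in controls. Col4a1, the next by the mean, was tighter, at 82.2 ± 8.44 CPM per kb in CXCL12-deficient libraries and 71.4 ± 7.86 CPM per kb in controls.

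Chains that assemble into 1 protein kept closer proportions in types V and IV than in type I, and their ratios ranged most widely in types IX and XI. The per-kilobase ratio of Col5a1 to Col5a2 was 0.756, 0.696 and 0.794 in CXCL12-deficient libraries and 0.824, 0.774 and 0.795 in controls, a range of 1.18-fold. The ratio of Col4a1 to Col4a2 was 2.33, 1.79 and 1.97 in CXCL12-deficient libraries and 2.17, 2.43 and 2.12 in controls, a range of 1.36-fold. The ratio of Col1a1 to Col1a2 was 1.33, 2.26 and 0.773 in CXCL12-deficient libraries and 2.47, 1.59 and 1.0 in controls, a range of 3.20-fold. It was highest in the 2 libraries with most Col1a1. Col6a1 over Col6a2 ran from 1.19 to 1.78 over the 6 libraries. Col11a1 over Col11a2 ran from 1.13 to 176, a range of 155-fold. Its highest value, in CXCL12-deficient replicate 3, rests on 2 reads of Col11a2. Col9a3 over Col9a2 ran from 0.0278 to 1.64, a range of 58.9-fold. Its lowest value, in CXCL12-deficient replicate 2, rests on 2 reads of Col9a3. The ratio of Col6a3 to Col6a1, chosen after the values were seen and therefore not tested, was 0.0186, 0.0229 and 0.0248 in CXCL12-deficient libraries and 0.0544, 0.0413 and 0.0397 in controls. These groups did not overlap, whereas each chain's own groups did. All other chain ratios computed here overlapped between the groups. A single separated ratio, picked from several, is a description only.

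**Figure D5:**
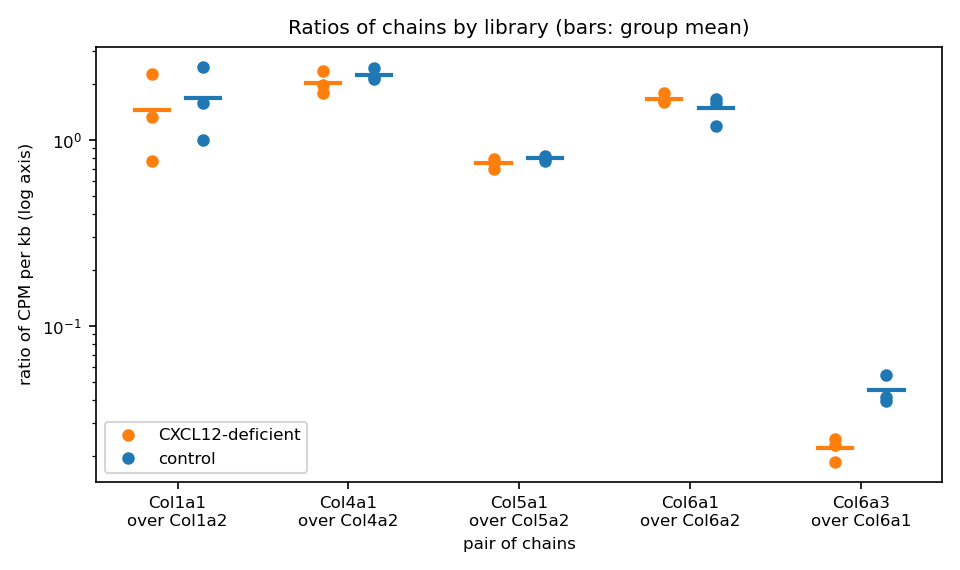
Ratio of CPM per kb between chains of 1 collagen type (log axis) in each library, with CXCL12-deficient libraries left and controls right of each position and bars at the group means. Points of Col5a1 over Col5a2 nearly coincide, those of Col1a1 over Col1a2 scatter in both groups, and those of Col6a3 over Col6a1 do not overlap between the groups.

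Genes that modify, export, process, bind or degrade collagen were tested beside the chains. Of 74 tested genes in 7 lists, 2 were called, both lower, against 4.57% of all tested genes, among whose 637 calls 548 were lower. Of 20 genes of hydroxylation and folding in the endoplasmic reticulum 0 was called, and their median log2 fold change was 0.16. Serpinh1, the collagen chaperone HSP47, had 2364, 2273 and 2677 CPM in CXCL12-deficient libraries and 2594, 1798 and 1505 CPM in controls (log2 fold change 0.31 ± 0.22, adjusted p = 0.517). Of 6 export genes and 7 genes of propeptide removal 0 was called, with medians of 0.04 and 0.30. Adamts2, which cuts off the N-propeptide, had 452, 1007 and 1082 CPM in CXCL12-deficient libraries and 685, 611 and 754 CPM in controls. Of 12 genes of cross-linking and fibril assembly 0 was called (median 0.20), and Sparc, a collagen-binding protein of bone and the most abundant of them, had 4944, 5005 and 5022 CPM in CXCL12-deficient libraries and 6612, 3826 and 2974 CPM in controls. The CXCL12-deficient libraries of Sparc lay close together within the range of the controls. Loxl2, a lysyl oxidase that cross-links collagen, had 53.9, 56.3 and 40.9 CPM in CXCL12-deficient libraries, all above the 35.6, 28.0 and 27.2 CPM of controls, with an adjusted p of 0.0733. Fn1, encoding the fibronectin on which fibrils assemble, had 111, 107 and 161 CPM in CXCL12-deficient libraries, all below the 312, 205 and 193 CPM of controls, with an adjusted p of 0.0668.

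Both called genes are known from leukocytes. Lair1, a collagen receptor of leukocytes and 1 of 8 tested receptors, had 0.708, 3.71 and 0.977 CPM in CXCL12-deficient libraries and 10.1, 10.8 and 12.5 CPM in controls (log2 fold change -2.63 ± 0.59, adjusted p = 0.0417). Mmp8, the neutrophil collagenase and 1 of 9 tested genes of collagen degradation, had 111, 62.0 and 24.8 CPM in CXCL12-deficient libraries and 295, 366 and 478 CPM in controls (log2 fold change -2.53 ± 0.46, adjusted p = 0.0188). Of the 15 leukocyte markers given above, of which Mmp8 is one, 13 were called lower, Mmp8 among them, and the part of leukocytes in these 2 genes was not tested. Leaving out 1 library moved the adjusted p of Lair1 to between 0.0123 and 0.167, and the call remained only without CXCL12-deficient replicate 2. For Mmp8 it ran from 0.0107 to 0.0799, and the call was lost without CXCL12-deficient replicate 2, control replicate 2 or control replicate 3. Ddr2, a collagen receptor of stromal cells, had 155, 144 and 135 CPM in CXCL12-deficient libraries, against 109, 66.7 and 86.0 CPM in controls (log2 fold change 0.73 ± 0.19, adjusted p = 0.0685). With DESeq2, Ddr2, Loxl2 and Fn1 passed, at adjusted p-values of 0.0115, 0.0199 and 0.00337 in this order. DESeq2 called 1291 of all 13926 tested genes, against 637 with edgeR. These genes were named after their values were seen, and the DESeq2 calls among the other listed genes are not given here. Mmp13, a collagenase and the most abundant gene of its list, had 4132, 4140 and 4878 CPM in CXCL12-deficient libraries and 4966, 3792 and 3173 CPM in controls. Of 12 tested laminins, nidogens and other basement membrane partners of collagen IV 0 was called (median 0.24), and Nid1, a linker of laminin and collagen IV, had 150, 132 and 203 CPM in CXCL12-deficient libraries and 158, 143 and 134 CPM in controls.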

How the data were processed

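RNA sequencing reads were counted per gene by the authors, who deposited whole-number counts that are not normalized. Per the submitters' processing notes the build was mm10 and the tools were Bowtie2 2.2.1 and TopHat2 2.0.13, with HTSeq, DESeq2, Cuffdiff, Cufflinks and FastQC. The role of each tool, the annotation and the strand setting were not given in the sources used here. Per the labels, mRNA was amplified with SMARTer chemistry and made into Nextera XT libraries. Deposited depth-normalized and regularized log values were not used.

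The 4 exon entries of Cxcl12 were summed. Genes passed filterByExpr (minimum count 10, total 15). CXCL12-deficient and control libraries were compared over all genes with edgeR 4.0.16 (R 4.3.3), using TMM factors, robust dispersions and quasi-likelihood F-tests, with Benjamini-Hochberg adjustment and a threshold of 0.05. Intervals are 95% t intervals of the log2 fold change. The labels give no batch and no replicate number, so no block was fitted. The replicate numbers used here only follow the order in which the libraries of each group were deposited. The steps were tested on simulated data with 200 genes changed. Within-group SDs used log2 CPM with a prior count of 2. Alternatives were other scalings, filters, no robust shrinkage, DESeq2 1.42.0, limma 3.58.1, a threshold of 0.01 on the same fit and leaving out each library. Chains with too few reads to pass the filter are given as counts. Members and lists were chosen with earlier results of these data known. By the rule for named genes, called chains, chains without overlap and the most abundant of each class are given in all libraries, with called and abundant genes of the other lists; further chains, Ddr2, Loxl2, Fn1, Nid1 and single marker genes were named after their values were seen. Coordinates and lengths are from GENCODE M21 on GRCm38, which is mm10, and may differ from the authors' annotation. Results of 1 marker list are not reported here.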

Additional observations from a re-analysis of the deposited data

How the results depend on the processing

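All 14 alternatives called 0 collagen chains, as the quasi-likelihood test did. For 1 of the 14, an adjusted p below 0.01 on the same fit, that result was fixed in advance. The number of chains tested was 41 with no filter, 23 with at least 5 CPM in 3 libraries and 35 or 36 otherwise, and the lowest adjusted p of a chain lay between 0.066 and 0.394 when 1 library was left out. Over all genes the number called was 637; it was 1291 with DESeq2, 80 at an adjusted p below 0.01, and 74 (without control replicate 3) to 577 (without control replicate 1) when 1 library was left out, against 160 without control replicate 2. The cause of these differences between tools was not tested; with 1 library fewer the test has fewer samples. The median log2 fold change of the chains was -0.21 and turned to 0.34 without control replicate 1.

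Of the refitted fold changes of single chains 409 kept their sign and 34 changed it. Log2 fold changes near 0 changed sign for Col1a2 with limma-voom (0.0033), Col5a1 with a minimum of 5 CPM in 3 libraries (-0.0035), Col17a1 with limma-voom (0.90) and Col25a1 with limma-voom (0.25). With 1 library left out the values ran across 0 in these chains: Col1a1 from -1.58 to 0.97, Col1a2 from -0.55 to 0.64, Col5a1 from -0.18 to 0.39, Col5a2 from -0.058 to 0.46, Col11a1 from -0.87 to 0.18, Col24a1 from -2.19 to 1.0, Col27a1 from -0.0056 to 0.74, Col4a3 from -0.36 to 0.78, Col9a1 from -10.27 to 0.046, Col9a2 from -1.86 to 0.17, Col20a1 from -0.20 to 0.81, Col22a1 from -2.22 to 1.66, Col6a1 from -0.0014 to 0.43, Col6a2 from -0.17 to 0.32, Col6a5 from -1.33 to 0.44, Col8a1 from -0.86 to 0.097, Col18a1 from -0.79 to 0.072, Col13a1 from -1.36 to 1.15, Col17a1 from -0.72 to 1.25 and Col25a1 from -0.51 to 0.75. No paired analysis was possible because the labels give no replicate numbers. Without a change of sign, the values ran from -5.26 to -0.67 for Col2a1, from -5.73 to -1.02 for Col9a3, from -5.13 to -1.93 for Col4a5 and from 0.76 to 5.47 for Col10a1. Chains below about 1 CPM rest on few reads, since 1 read was worth 0.0357 to 0.0472 CPM.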
